A study of Mus musculus with 4 samples.

Results

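Type I interferon response genes are genes whose transcription is switched on when interferon binds its receptor, and 35 of them were examined in aged blood stem and progenitor cells. They were chosen by name from a list of interferon-induced genes that left out the interferon regulatory factor family and the immunoproteasome. All 35 were among the 24421 genes of the count table, and all 35 passed the filter on low counts that left 13296 genes for testing. The cells were LSK cells, the lineage-negative, Sca-1-positive, Kit-positive fraction of bone marrow that holds the hematopoietic stem cells, sorted from mice aged 13 to 15 months. One group carried p53R248W/+, a heterozygous missense change in p53, the tumour suppressor and transcription factor, with 2 libraries. The other group was wild type (WT), also with 2 libraries. The strain, the number of animals and whether replicates are separate animals are not stated in the labels. A p-value here therefore rests on the spread of 2 libraries a genotype, and part of that spread may be technical. The test moderates each gene's spread with that of the other genes, so p-values and standard errors do not read a gene's own spread alone.

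Type I interferons signal through the receptor chains IFNAR1 and IFNAR2 and the kinases JAK1 and TYK2. A complex that holds STAT2 and IRF9 then binds the interferon-stimulated response element (ISRE) in promoters. Type II interferon acts through gamma-activated sites (GAS), and many genes of the list, the GTPases above all, respond to both. In bone marrow, interferons are known to push quiescent stem cells into cycle, and interferon also induces Ly6a, the gene of the Sca-1 antigen used in the sort.

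Promoter sequences are shown first, because the ISRE is the element through which type I interferon is known to act. It was not found in the window of every gene. RefSeq windows (build GRCm38.p6) of 300 bases, from 250 before to 50 after a start site, were found for 26 of the 35 genes, in 29 windows. The ISRE core was searched on both strands as GAAA, any 2 bases and GAAA again. It was present in 19 of the 29 windows (65.5%) and in 1131 of all 32851 windows (3.44%). The GAS, searched as TTCNNNGAA, which reads the same on both strands, was present in 6 of 29 windows (20.7%) and in 8.30% of all windows. A match of letters is a description and does not show that a factor was bound. Capitals mark the ISRE core in each sequence below. Isg15 (chr4:156200769-156201068, minus strand) and Oas3 (chr5:120777610-120777909, minus strand) are shown as examples of genes whose values did not overlap between genotypes. Every sequence shown holds the core. Ifi44 also did not overlap, but its window held no match, and it is not shown. The neighbours Oas1g (chr5:120887564-120887863, minus strand) and Oas1a (chr5:120907476-120907775, minus strand) are shown because they hold the same capital bases and lay on opposite sides of WT. Ifit3 (chr19:34583279-34583578, plus strand) and Irgm1 (chr11:48871371-48871670, minus strand) are shown because the WT libraries stood apart for both, in opposite directions.
Isg15: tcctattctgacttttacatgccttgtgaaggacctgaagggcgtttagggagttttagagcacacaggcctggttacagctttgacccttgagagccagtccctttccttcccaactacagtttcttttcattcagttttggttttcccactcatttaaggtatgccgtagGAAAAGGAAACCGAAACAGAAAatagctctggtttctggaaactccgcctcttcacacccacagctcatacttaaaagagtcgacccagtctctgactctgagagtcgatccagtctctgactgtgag
Oas3: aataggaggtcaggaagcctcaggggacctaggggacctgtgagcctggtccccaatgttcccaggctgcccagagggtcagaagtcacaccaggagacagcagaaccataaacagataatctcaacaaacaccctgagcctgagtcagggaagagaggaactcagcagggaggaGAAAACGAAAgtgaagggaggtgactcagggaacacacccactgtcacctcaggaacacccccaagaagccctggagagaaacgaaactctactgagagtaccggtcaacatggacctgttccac
Oas1g: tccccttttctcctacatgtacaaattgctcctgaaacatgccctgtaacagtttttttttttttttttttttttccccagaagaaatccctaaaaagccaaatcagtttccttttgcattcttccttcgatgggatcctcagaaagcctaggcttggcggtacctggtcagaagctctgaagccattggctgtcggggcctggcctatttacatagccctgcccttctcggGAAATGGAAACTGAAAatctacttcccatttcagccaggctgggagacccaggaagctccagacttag
Oas1a: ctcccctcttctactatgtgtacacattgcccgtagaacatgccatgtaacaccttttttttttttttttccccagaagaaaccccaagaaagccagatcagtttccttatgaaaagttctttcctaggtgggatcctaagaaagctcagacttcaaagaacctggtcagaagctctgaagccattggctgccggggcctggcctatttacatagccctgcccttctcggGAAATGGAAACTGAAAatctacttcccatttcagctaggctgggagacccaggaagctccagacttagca
Ifit3: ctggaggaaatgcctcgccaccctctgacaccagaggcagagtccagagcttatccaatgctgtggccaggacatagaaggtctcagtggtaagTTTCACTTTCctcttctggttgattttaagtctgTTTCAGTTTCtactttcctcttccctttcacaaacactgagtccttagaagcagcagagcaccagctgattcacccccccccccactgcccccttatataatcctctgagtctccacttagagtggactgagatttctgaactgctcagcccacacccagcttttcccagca
Irgm1: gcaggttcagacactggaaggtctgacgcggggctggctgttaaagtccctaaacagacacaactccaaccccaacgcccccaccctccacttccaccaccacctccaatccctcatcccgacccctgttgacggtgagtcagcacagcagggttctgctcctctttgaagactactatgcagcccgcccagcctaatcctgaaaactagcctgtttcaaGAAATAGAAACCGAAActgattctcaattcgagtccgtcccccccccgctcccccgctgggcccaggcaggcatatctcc

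The libraries held 12111126 to 14820759 counted reads, and 3 counts, the detection floor used here, corresponded to 0.202 to 0.248 CPM (read counts scaled to a common library size, here by the TMM method). The floor covers counting error only. Kit, whose product was a gate of the sort, was measured at 1182 and 1105 CPM in the p53R248W/+ libraries and at 911 and 998 CPM in the WT libraries. The 8 LSK markers listed, Kit included, summed to 4548 and 4226 CPM in p53R248W/+ and to 3515 and 3843 CPM in WT. Of these, 7 had positive fold changes and 1 a negative one. Without overlap, 3 were higher and 1 was lower, against 16.9% and 16.6% of all tested genes. None passed the adjusted threshold. Of the markers of mature cells, the hemoglobin genes Hba-a1 and Hbb-bs and the T cell gene Cd3g had 0 counts, which allows at most the floor in each library. The other members of those lists were not all absent, and the erythroid list summed to 35.7 and 19.8 CPM in the p53R248W/+ libraries and to 25.0 and 27.7 CPM in the WT libraries. The T and NK cell list summed to 81.0 and 67.7 CPM in the p53R248W/+ libraries and to 69.0 and 82.5 CPM in the WT libraries, mostly from Klrb1c and Nkg7. Monocyte and macrophage markers summed to 75.8 and 29.4 CPM in the p53R248W/+ libraries and to 54.7 and 22.3 CPM in the WT libraries. The plasmacytoid dendritic cell list summed to 338 and 383 CPM in the p53R248W/+ libraries and to 298 and 263 CPM in the WT libraries, and most of this was Tcf4. Its 4 tested genes all had positive fold changes, and 3 were higher without overlap, against 16.9% of all tested genes. Bst2, which is also among the 35 genes, is 1 of these 3. The same counts held for the 4 tested genes of the B and plasma cell list. The plasmacytoid dendritic cell gene Siglech had at most 3 counts in any library. The neutrophil marker list summed to 30.8 and 28.7 CPM in the p53R248W/+ libraries and to 4.05 and 27.1 CPM in the WT libraries. Immediate early genes, which respond to stress and to cell handling, summed to 4359 and 5033 CPM in the p53R248W/+ libraries, against 9190 and 5629 CPM in the WT libraries. All 18 had negative fold changes, and 15 were lower without overlap, against 16.6% of all tested genes. In bulk RNA, fewer expressing cells and less RNA per cell cannot be told apart.

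None of the 35 genes differed between the genotypes at an adjusted p under 0.05 (edgeR quasi-likelihood test, adjusted over all 13296 genes), where 0% of all genes were called. The smallest adjusted p of all tested genes was 0.824 (edgeR), and unlike genes named below share that value. The count was also 0 with DESeq2 and with limma-voom. A single gene, Zbp1, 1 of 35, had an unadjusted p under 0.05, against a background of 5.87% of all genes. The log2 fold changes of p53R248W/+ over WT were positive for 20 genes and negative for 15. Their median was 0.02, where the median of all tested genes was -8.81e-05. Values did not overlap between genotypes for 10 of the 35 genes, 8 higher and 2 lower in both p53R248W/+ libraries, against a background of 33.6% of all genes (16.9% higher, 16.6% lower). The genotype difference was larger than both differences between replicates for 5 genes, against a background of 21.6%. The summed level of the 35 genes was 2386 and 2626 CPM in the p53R248W/+ libraries and 2161 and 2669 CPM in the WT libraries, so the WT libraries lay on either side of both mutant libraries.

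**Figure D1:**
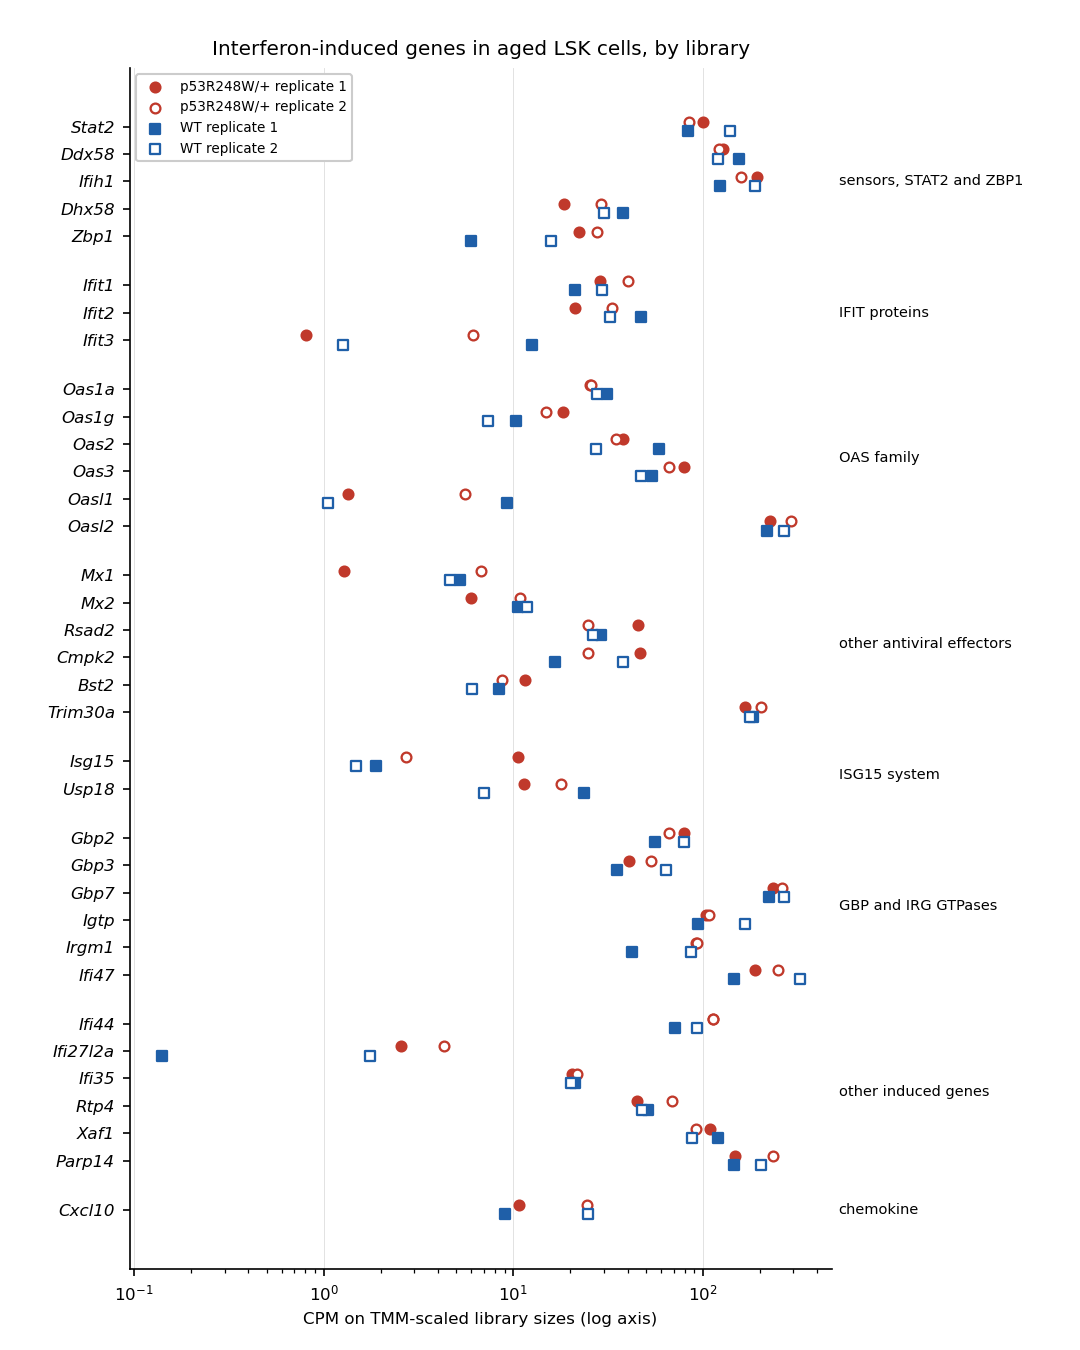
CPM of the 35 interferon-induced genes on a log axis, with p53R248W/+ libraries as circles and WT libraries as squares, filled for replicate 1 and open for replicate 2, grouped by role. Circles and squares interleave for most genes, and WT replicate 1 lies far to the right for Ifit3 (12.5 CPM) and Oasl1 (9.21 CPM).

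The precision differed with the level. For the 15 genes with a mean of at least 50 CPM the median standard error (SE) of the log2 fold change was 0.26, and their fold changes ran from -0.31 to 0.54. For the 20 genes under 50 CPM the median SE was 0.57. The 95% interval lay within a 2-fold change either way for 15 of the 35 genes, against 34.5% of all tested genes. For the other 20 genes a 2-fold difference lay inside the interval in one direction or both. The sign of the fold change turned for 22 of the 35 genes when single libraries were left out, and it turned for 53.4% of all tested genes.

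**Figure D2:**
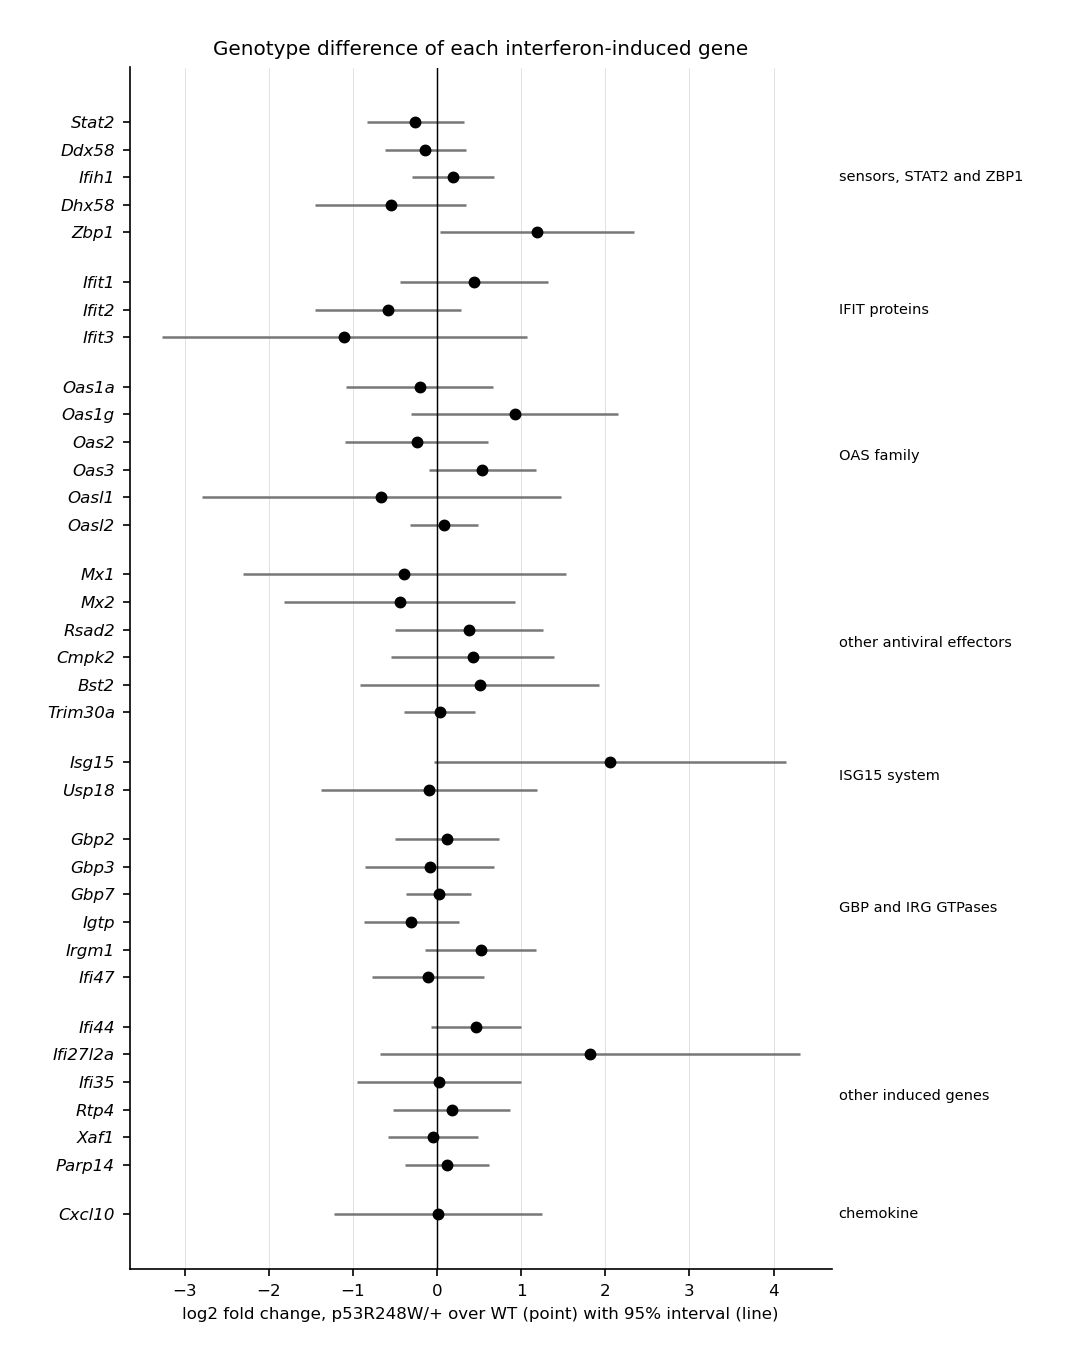
Log2 fold change of each gene, p53R248W/+ over WT, as a point with its 95% interval as a line, in the edgeR fit over all genes. The interval includes 0 for every gene shown apart from Zbp1 (0.03 to 2.34), which did not pass after adjustment.

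Among the sensors of nucleic acids, the viral RNA helicase genes Ifih1 and Ddx58 were higher than Dhx58 in every library, also per exon length. Ifih1, which encodes the long double-stranded RNA sensor MDA5 (mm10 chromosome 2, 62595793 to 62646255), was at 194 and 158 CPM in p53R248W/+ and at 123 and 188 CPM in WT. A log2 fold change of 0.19 ± 0.23 (SE, 2 libraries a genotype; adjusted p = 0.933, edgeR) was found, with an interval from -0.30 to 0.67, and the groups overlapped. Ddx58, the gene of the 5′-triphosphate RNA sensor RIG-I, was at 128 and 121 CPM in p53R248W/+ and at 155 and 120 CPM in WT. Dhx58, the gene of the regulatory helicase LGP2 (chromosome 11, 100694884 to 100704271), was at 18.5 and 28.8 CPM in p53R248W/+ and at 37.9 and 30.2 CPM in WT. Both mutant libraries were below both WT libraries, the nearest by a small margin, and the log2 fold change was -0.55 ± 0.43 (SE; adjusted p = 0.880, edgeR). Left-out libraries moved it between -0.88 and -0.24.

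Zbp1 encodes a sensor of left-handed (Z-form) nucleic acids that can trigger cell death (chromosome 2, 173206612 to 173218922). It was at 22.3 and 27.5 CPM in p53R248W/+ and at 6.0 and 15.7 CPM in WT, with both mutant libraries above both WT libraries. The log2 fold change was 1.19 ± 0.55 (SE), with an interval from 0.03 to 2.34, an unadjusted p of 0.0448 and an adjusted p of 0.824 (edgeR). The WT libraries differed from each other by 2.62-fold, more than the genotype means. The fold change (log2) became 0.65 when WT replicate 1 was left out and 2.05 when WT replicate 2 was. Stat2, a transcription factor of type I interferon signalling, was at 99.8 and 84.7 CPM in p53R248W/+ and at 83.2 and 138 CPM in WT, with overlap.

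The IFIT proteins bind viral RNA and block its translation. Ifit1 (chromosome 19, 34640889 to 34650009) was at 28.7 and 40.4 CPM in p53R248W/+ and at 21.1 and 29.2 CPM in WT, and its log2 fold change was 0.44 ± 0.42 (SE; adjusted p = 0.899, edgeR). Leaving out single libraries gave 0.19 (without p53R248W/+ replicate 2) to 0.71 (without WT replicate 2). Ifit2 was at 21.0 and 33.3 CPM in p53R248W/+ and at 47.4 and 32.4 CPM in WT. Ifit3, at 0.809 and 6.11 CPM in p53R248W/+ and at 12.5 and 1.26 CPM in WT, varied more within each genotype than between them. Its WT libraries differed 9.89-fold and its p53R248W/+ libraries 7.55-fold, so the fold change ran from -3.08 to 1.34 with single libraries left out. Of the 50-base stretches of Ifit3 transcripts, 51.2% also occur in its neighbour Ifit3b, which makes its counts uncertain.

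Active enzymes of the OAS family make 2′-5′ oligoadenylates, the messenger that activates the RNA-degrading enzyme RNase L. The 6 genes of the family listed here, OAS-like genes included, lay on both sides of WT, 3 with positive and 3 with negative fold changes. Oas3 (chromosome 5, 120753098 to 120777659) was at 79.6 and 66.5 CPM in p53R248W/+ and at 54.1 and 46.9 CPM in WT. Both mutant libraries were above both WT libraries, and the genotypes differed by more than the replicates of either genotype did. The log2 fold change was 0.54 ± 0.30 (SE; interval -0.09 to 1.17; adjusted p = 0.827, edgeR), and it stayed between 0.40 and 0.66 with single libraries left out. Oas1g (chromosome 5, 120876142 to 120887613) was at 18.3 and 14.9 CPM in p53R248W/+ and at 10.3 and 7.36 CPM in WT, also without overlap. Its fold change was 0.92 ± 0.58 (log2, SE; adjusted p = 0.835, edgeR). Oas1a (chromosome 5, 120896257 to 120907525), in the same gene cluster, was at 25.4 and 25.5 CPM in p53R248W/+ and at 31.2 and 27.5 CPM in WT. Both mutant libraries were below both WT libraries, and the genotypes differed by more than the replicates did. Its log2 fold change was -0.21 ± 0.42 (SE; adjusted p = 0.962, edgeR), and it was -0.11 without WT replicate 1.

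Oas1a and Oas1g are close copies, and 57.6% of the 50-base stretches of Oas1a transcripts also occur in Oas1g. No source used here says how reads with several alignments were counted, so the split of reads between these copies is uncertain. Oas2 was at 37.8 and 34.8 CPM in p53R248W/+, between the WT libraries at 58.7 and 27.3 CPM. Oasl2, an OAS-like gene with a ubiquitin-like tail (chromosome 5, 114896934 to 114912245), had the highest level per exon length in the family. It was at 222 and 290.5 TPM (counts scaled by exon length and by library total) in p53R248W/+ and at 204 and 263 TPM in WT. The log2 fold change of its counts was 0.08 ± 0.19 (SE; interval -0.32 to 0.49; adjusted p = 0.968, edgeR). Oasl1 was at 1.35 and 5.53 CPM in p53R248W/+ and at 9.21 and 1.05 CPM in WT, and as for Ifit3 the highest library was WT replicate 1 and the next p53R248W/+ replicate 2.

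The other antiviral effectors act at several steps of viral growth. Trim30a, a ubiquitin ligase (chromosome 7, 104409026 to 104465193), was the highest of them per exon length and the most even, at 167 and 203 CPM in p53R248W/+ and at 183 and 178 CPM in WT. The fold change was 0.03 ± 0.20 (log2, SE; interval -0.39 to 0.45; adjusted p = 0.992, edgeR). Bst2, which encodes tetherin, a membrane protein that holds budding virus (chromosome 8, 71534262 to 71537437), was at 11.5 and 8.76 CPM in p53R248W/+ and at 8.37 and 6.03 CPM in WT. The groups did not overlap, by a small margin, and the log2 fold change was 0.51 ± 0.67 (SE; adjusted p = 0.937, edgeR). It ranged from 0.28 without p53R248W/+ replicate 1 to 0.76 without WT replicate 1. Bst2 is also a marker of plasmacytoid dendritic cells and is itself part of that list. The sum of the list, given above, was higher in both p53R248W/+ libraries than in both WT libraries. Since that sum holds Bst2 and is mostly Tcf4, it is not a separate reading of such cells. The part of such cells in this value was not tested. Rsad2, the gene of viperin, which makes a chain-terminating nucleotide, and its neighbour Cmpk2, a nucleotide kinase, had their highest value in p53R248W/+ replicate 1. Rsad2 was at 45.5 and 24.8 CPM in p53R248W/+ and at 29.0 and 26.2 CPM in WT, and Cmpk2 was at 46.4 and 24.7 CPM in p53R248W/+ and at 16.5 and 37.7 CPM in WT.

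The dynamin-like GTPase genes Mx1 and Mx2 were low. Mx1 was at 1.28 and 6.77 CPM in p53R248W/+ and at 5.23 and 4.63 CPM in WT, and many laboratory mouse strains are known to carry a defective Mx1 allele. Mx2 was at 6.0 and 10.9 CPM in p53R248W/+ and at 10.6 and 11.8 CPM in WT. For both genes the lowest of the 4 values was that of p53R248W/+ replicate 1.

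ISG15 is a ubiquitin-like protein that is attached to other proteins, and USP18 removes it and also dampens signalling at the interferon receptor. Isg15 (chromosome 4, 156199424 to 156200818) had the largest log2 fold change of the 35 genes and was named after its values were seen. It was at 10.6 and 2.73 CPM in p53R248W/+, from 157 and 33 counts, and at 1.88 and 1.47 CPM in WT, from 27 and 21 counts. The groups did not overlap, but the mutant libraries differed 3.88-fold from each other. The log2 fold change was 2.06 ± 1.00 (SE; interval -0.03 to 4.15; adjusted p = 0.824, edgeR), and it was 0.70 without p53R248W/+ replicate 1. Usp18 (chromosome 6, 121245906 to 121270917) was at 11.3 and 17.9 CPM in p53R248W/+ and at 23.6 and 7.01 CPM in WT, and the fold change was -0.09 ± 0.61 (log2, SE; adjusted p = 0.992, edgeR). The mutant libraries lay between the WT libraries, which differed 3.36-fold.

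The guanylate-binding proteins (Gbp2, Gbp3 and Gbp7) and the immunity-related GTPases (Igtp, Irgm1 and Ifi47) attack the vacuoles of intracellular microbes. They included Ifi47, the gene with the highest level per exon length of all 35. Ifi47 (chromosome 11, 49076587 to 49096987) was at 188 and 249 CPM in p53R248W/+ and at 147 and 324 CPM in WT, or 287 and 389 TPM in p53R248W/+ and 213 and 498 TPM in WT. Its log2 fold change was -0.11 ± 0.30 (SE; interval -0.78 to 0.55; adjusted p = 0.970, edgeR), and it was -0.57 without WT replicate 1 and 0.58 without WT replicate 2. Its exons share 111 bases with Olfr56.

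Irgm1, which regulates the other family members and is known in mice to protect stem cells during interferon responses (chromosome 11, 48865249 to 48871346), was at 91.7 and 92.9 CPM in p53R248W/+ and at 42.5 and 86.6 CPM in WT. The mutant libraries were close together and above both WT libraries, the nearer by a small margin. The log2 fold change was 0.52 ± 0.31 (SE; interval -0.14 to 1.18; adjusted p = 0.835, edgeR), and it was 0.09 without WT replicate 1 and 1.13 without WT replicate 2. Igtp was at 103 and 108 CPM in p53R248W/+ and at 94.6 and 167 CPM in WT. The 3 guanylate-binding protein genes had log2 fold changes of -0.09 to 0.12, and Gbp7, the most abundant of them per exon length, was at 234 and 262 CPM in p53R248W/+ and at 223 and 266 CPM in WT.

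For the GTPases the difference between WT libraries was larger than the genotype difference. A genotype difference beyond both replicate differences was found for only 5 of the 35 genes and for 21.6% of all tested genes. All 6 genes were higher in WT replicate 2 than in WT replicate 1, by 1.19-fold for Gbp7 to 2.21-fold for Ifi47, and 50.5% of all tested genes were. Of the whole list, 17 of 35 genes were higher in WT replicate 2. This held for 1 of 6 OAS genes, 2 of 6 other antiviral effectors and 0 of 2 genes of the ISG15 system. Between the p53R248W/+ libraries, 5 of the 6 GTPase genes were higher in replicate 2, by at most 1.33-fold (background 49.6%), and Gbp2 was 1.2-fold higher in replicate 1. Of the 60 further interferon-induced genes tested, 40 were higher in WT replicate 2 than in WT replicate 1. Some GTPase genes are near copies of one another, and 11.8% of the 50-base stretches of Igtp also occur in Irgm2. Ifit3, Oasl1, Usp18 and Oas2 lay the other way, higher in WT replicate 1, by 9.89-fold, 8.75-fold, 3.36-fold and 2.15-fold. WT replicate 1 was also the library with the highest sum of immediate early genes and the lowest sum of neutrophil markers, and the part of either in these values was not tested.

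**Figure D3:**
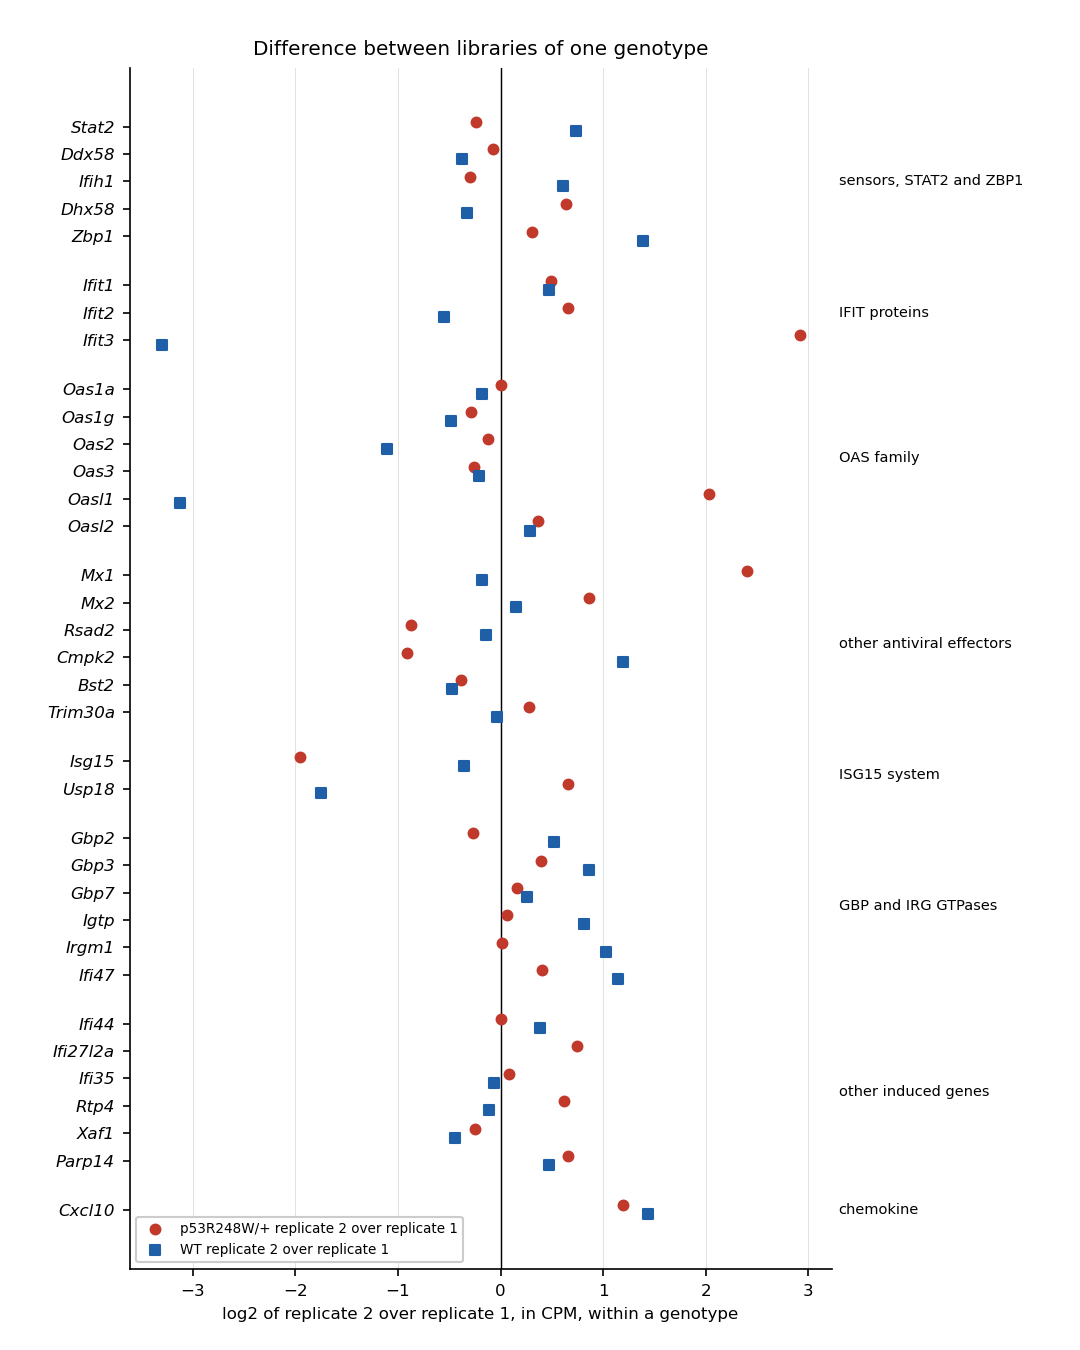
Log2 ratio of replicate 2 over replicate 1 within p53R248W/+ (circles) and within WT (squares), in CPM, for each gene. WT squares lie to the right of 0 for all 6 GTPases and far to the left for Ifit3 and Oasl1, where the circles lie to the right. No square is drawn for Ifi27l2a, which had 2 counts in WT replicate 1.

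The remaining induced genes have varied or less settled roles. Xaf1, which encodes an antagonist of the apoptosis inhibitor XIAP (chromosome 11, 72301629 to 72313733), was the highest of them per exon length. It was at 109 and 91.6 CPM in p53R248W/+ and at 119.5 and 88.0 CPM in WT, and the fold change was -0.05 ± 0.26 (log2, SE; interval -0.58 to 0.49; adjusted p = 0.990, edgeR). Ifi44 (chromosome 3, 151730923 to 151749959) was at 112.9 and 113.5 CPM in p53R248W/+ and at 71.3 and 93.4 CPM in WT. Both mutant libraries were above both WT libraries, the genotypes differed by more than the replicates of either did, and the log2 fold change was 0.46 ± 0.25 (SE; interval -0.07 to 0.99; adjusted p = 0.825, edgeR). Without single libraries it stayed between 0.28 and 0.67.

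Parp14, an ADP-ribosyltransferase, was at 148 and 233 CPM in p53R248W/+ and at 146 and 202 CPM in WT. Rtp4, a chaperone of receptors, was at 44.8 and 68.6 CPM in p53R248W/+ and at 51.6 and 47.7 CPM in WT. Ifi35 was at 20.4 to 21.6 CPM in p53R248W/+ and at 20.2 to 21.1 CPM in WT, the narrowest range of the 35 genes. Ifi27l2a had 38 and 52 counts in p53R248W/+ and 2 and 25 counts in WT, and 103 bases of its exons overlap Ifi27 on the other strand. The count of WT replicate 1 was under the floor, so no fold is given. Cxcl10, the chemokine of the list (chromosome 5, 92346639 to 92348889), was at 10.7 and 24.4 CPM in p53R248W/+ and at 9.07 and 24.6 CPM in WT. Its log2 fold change was 0.01 ± 0.59 (SE; interval -1.23 to 1.25; adjusted p = 0.999, edgeR), and in both genotypes replicate 2 was the higher, by 2.29-fold in p53R248W/+ and 2.72-fold in WT.

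Set in order of the mean over all libraries per exon length, Ifi47 (347 TPM), Oasl2 (245 TPM), Igtp (179 TPM), Trim30a (148 TPM) and Gbp7 (134 TPM) led the list. These neighbours overlapped in range, since Ifi47 was at 213 TPM and Oasl2 at 204 TPM in WT replicate 1. At the other end were Mx1 (4.61 TPM), Oasl1 (6.09 TPM), Ifi27l2a (7.70 TPM) and Ifit3 (7.77 TPM). Isg15, a gene strongly induced by interferon in most cell types, was at 43.1 and 11.3 TPM in p53R248W/+ and at 7.29 and 6.03 TPM in WT.

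The rest of the pathway was read from lists of ligands, receptors, transcription factors, sensors and inhibitors. Of 21 interferon ligand genes, 19 had 0 counts in all libraries, among them Ifnb1, Ifng and every Ifna gene listed. The exceptions were Ifnk, at 24 and 12 counts in p53R248W/+ and 1 and 11 counts in WT, and Ifnz, with 0 counts in both p53R248W/+ libraries and 0 and 4 counts in WT. None of the 8 receptor and signal transduction genes listed passed the threshold, 5 had positive and 3 negative fold changes, and their median was 0.24. Ifnar1, a chain of the type I receptor (chromosome 16, 91485215 to 91510522), was at 114 and 142 CPM in p53R248W/+ and at 90.4 and 91.3 CPM in WT. Its groups did not overlap, and the log2 fold change was 0.49 ± 0.24 (SE; interval -0.02 to 1.00; adjusted p = 0.824, edgeR). Ifnar2 was at 219 and 226 CPM in p53R248W/+, between the WT libraries at 240.0 and 147 CPM, and the fold change was 0.20 ± 0.22 (log2, SE; adjusted p = 0.924, edgeR).

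The receptor-bound kinase genes Jak1 and Tyk2 were also higher in both mutant libraries. Of the 8 receptor and signal transduction genes, 3 were higher and 1 was lower without overlap, against 16.9% and 16.6% of all tested genes. Jak2 and Ifngr1 overlapped, with log2 fold changes of -0.16 ± 0.19 and -0.12 ± 0.30 (SE). Jak1 was at 685 and 547 CPM in p53R248W/+ and at 504 and 506 CPM in WT, and Tyk2 was at 61.2 and 70.3 CPM in p53R248W/+ and at 35.5 and 59.0 CPM in WT. Their fold changes were 0.29 ± 0.15 and 0.47 ± 0.33 (log2, SE), with adjusted p of 0.825 and 0.857 (edgeR). With single libraries left out Jak1 ran from 0.12 (without p53R248W/+ replicate 1) to 0.44 (without p53R248W/+ replicate 2) and Tyk2 from 0.15 (without WT replicate 1) to 0.89 (without WT replicate 2). Ifngr2, a chain of the type II receptor, was lower without overlap, at 7.49 and 14.4 CPM in p53R248W/+ and at 25.0 and 17.9 CPM in WT. Its fold change was -1.01 ± 0.56 (log2, SE; adjusted p = 0.825, edgeR), and single libraries left out moved it between -1.52 and -0.58. Jak1, Tyk2 and Ifngr2 were named after their values were seen. Irf9, the DNA-binding partner of STAT2, was at 72.0 and 93.5 CPM in p53R248W/+ and at 61.4 and 72.4 CPM in WT, a log2 fold change of 0.30 ± 0.28 (SE; adjusted p = 0.90, edgeR) that ran from 0.10 to 0.48 with single libraries left out. Of the 8 tested interferon regulatory factor genes 6 had positive and 2 negative fold changes, with a median of 0.24 and none past the threshold. Irf7, the factor that amplifies interferon production (chromosome 7, 141263183 to 141266424), was at 24.1 and 15.4 CPM in p53R248W/+ and at 11.5 and 4.42 CPM in WT. The groups did not overlap, but the fold change of 1.33 ± 0.61 (log2, SE) had an unadjusted p of 0.0423 and an adjusted p of 0.824 (edgeR). It was 2.18 without WT replicate 1 and 0.81 without WT replicate 2. Irf4, which acts mainly in lymphoid cells, was at 66.9 and 18.5 CPM in p53R248W/+ and at 22.9 and 11.1 CPM in WT, and its log2 fold change of 1.38 ± 0.55 (SE; adjusted p = 0.824, edgeR) was 0.12 without p53R248W/+ replicate 1. The list of B and plasma cell markers was also highest in that library, at 105 and 59.8 CPM in p53R248W/+ and 64.7 and 52.5 CPM in WT, and its part was not tested.

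None of 13 sensing genes (6 positive, 7 negative, median -0.03) and none of 10 inhibitor genes (3 positive, 7 negative, median -0.13) passed the threshold. Nlrx1, a mitochondrial protein reported to restrain MAVS signalling, was at 9.85 and 14.6 CPM in p53R248W/+ and at 3.63 and 4.14 CPM in WT. The log2 fold change was 1.63 ± 0.75 (SE; adjusted p = 0.824, edgeR), and it was 1.34 to 1.91 with single libraries left out. Socs3, an inhibitor of cytokine receptor signalling (chromosome 11, 117966087 to 117969366), was at 8.77 and 11.1 CPM in p53R248W/+ and at 89.6 and 17.7 CPM in WT. Its log2 fold change was -2.45 ± 0.71 (SE; adjusted p = 0.824 with edgeR and 0.0616 with DESeq2). The fold change was -0.85 without WT replicate 1 and -3.18 without WT replicate 2. Socs1, the inhibitor that acts on JAK kinases after interferon, was named after its values were seen, with 0 and 2 counts in p53R248W/+, both under the floor, and 27 and 49 counts in WT. Over the 10 inhibitor genes the lowest log2 fold change was -5.00 and the smallest adjusted p was 0.824 (edgeR). Without overlap, 1 of the 10 was higher and 3 were lower, against 16.9% and 16.6% of all tested genes.

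Of 70 further interferon-induced genes, 68 were in the table and 60 were tested. None passed, 36 had positive and 24 negative fold changes, and their median was 0.15. An unadjusted p under 0.05 was reached by 4 of them, 1 higher (background 3.01%) and 3 lower (background 2.86%) in p53R248W/+. Gbp6 was at 184 and 72.7 CPM in p53R248W/+ and at 44.6 and 68.5 CPM in WT, and its log2 fold change of 1.21 ± 0.37 (SE; adjusted p = 0.824, edgeR) was 0.36 without p53R248W/+ replicate 1. Ifitm2, which blocks viral entry, was at 163.6 and 163.8 CPM in p53R248W/+ and at 271 and 217 CPM in WT, and the fold change was -0.57 ± 0.20 (log2, SE; adjusted p = 0.824, edgeR). Phf11d, the remaining gene of the 4 and outside the limit of 3 named per list, was at 7.55 and 24.7 CPM in p53R248W/+ and at 25.0 and 52.3 CPM in WT, and its fold change was -1.33 ± 0.54 (log2, SE; adjusted p = 0.824, edgeR). It ran from -2.35 to -0.65 with single libraries left out. Pnp, a purine salvage enzyme, was at 116 and 113 CPM in p53R248W/+ and at 176 and 175 CPM in WT. Its fold change of -0.62 ± 0.21 (log2, SE; adjusted p = 0.824, edgeR) was -0.64 to -0.61 with single libraries left out. Ly6a, the Sca-1 gene, was at 81.1 and 70.8 CPM in p53R248W/+ and at 40.2 and 82.9 CPM in WT, a log2 fold change of 0.31 ± 0.33 (SE; adjusted p = 0.914, edgeR). WT replicate 1, the library with the lowest Ly6a, also had the lowest values of all 6 GTPases, and since Sca-1 was a gate of the sort, its level reads only cells that passed the gate.

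**Figure D4:**
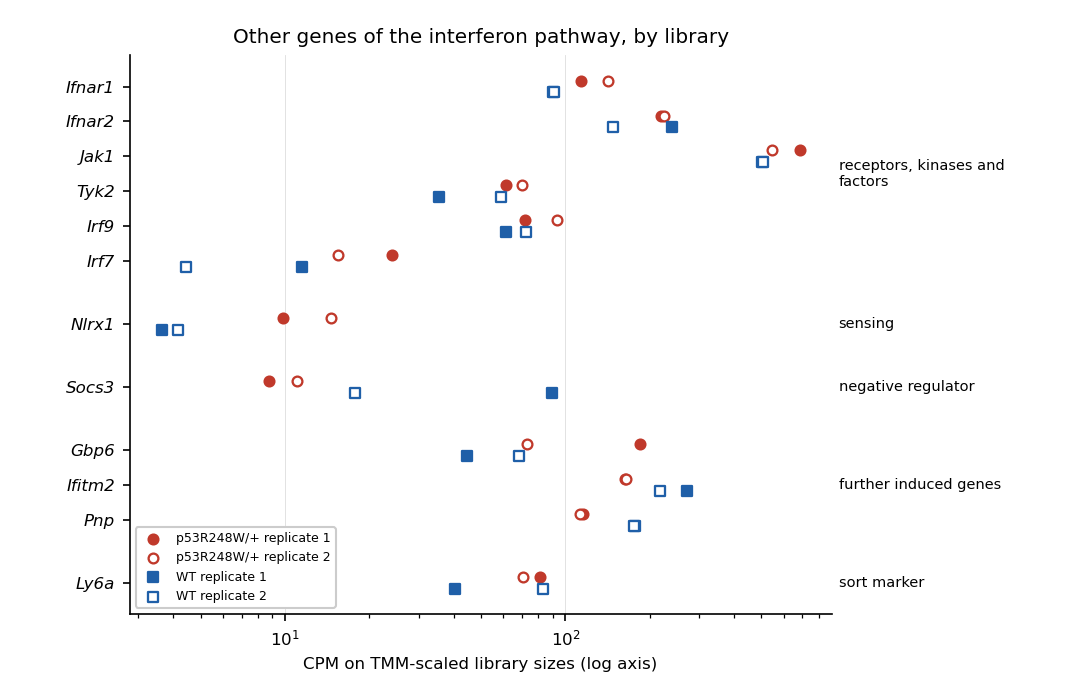
CPM on a log axis of receptor, kinase, factor, sensing, inhibitor and further induced genes and of Ly6a, with p53R248W/+ libraries as circles and WT libraries as squares, filled for replicate 1 and open for replicate 2. Circles stand apart from squares for Ifnar1, Jak1, Tyk2, Irf7, Nlrx1, Socs3, Gbp6, Ifitm2 and Pnp, and interleave for Ifnar2, Irf9 and Ly6a. Irf7, Nlrx1, Socs3, Gbp6, Ifitm2 and Pnp met the rule of an unadjusted p under 0.05, and Jak1 and Tyk2 were chosen after their values were seen. Their separation therefore follows in part from the choice, and 33.6% of all tested genes did not overlap. Irf4, which met the same p rule, overlapped and is not drawn.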

How the data were processed

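The authors deposited a table of read counts per gene for 4 bulk RNA-seq libraries of sorted LSK cells, 2 per genotype, with gene coordinates (mm10) and exon lengths. A column kit was used for RNA, per the labels' protocols. The submitters' processing notes name FastQC 0.11.5, STAR 2.7.10a, featureCounts of Subread 2.0.3, edgeR 3.40.2 and the build mm10. The strand setting and the treatment of reads with several alignments are not given in the sources used here, and either can move reads between overlapping genes or near copies. No other per-sample column was present.

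From the deposited counts, genes were filtered (filterByExpr, minimum count 10, minimum total 15), scaled by TMM and tested for genotype in edgeR 4.0.16 (quasi-likelihood, R 4.3.3, glmQLFit with robust = TRUE and legacy = FALSE). P-values were adjusted by Benjamini-Hochberg over 13296 genes, with a threshold of 0.05. The biological coefficient of variation was 46.0%. Intervals are 95% intervals of the fit. CPM used TMM-scaled library sizes, and TPM used the exon lengths of the table. An exact two-sided permutation test of 2 against 2 libraries cannot go below 0.333, so none was run. The script was tested on simulated data. Alternatives were other scalings, DESeq2 1.42.0, limma-voom (limma 3.58.1), no filter, a stricter filter (a mean of 5 CPM, and 1 CPM reached in 2 libraries), a block for the replicate number, and fits without each library in turn. The legacy quasi-likelihood method was added after seeing the data.

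The 35 genes, the other lists and the tests were chosen with earlier results of these data known. Genes given with full values were those with an unadjusted p under 0.05, those without overlap at a mean of at least 5 CPM, the highest per exon length in each role and, from each pathway list, up to 3 genes with an unadjusted p under 0.05 and a mean of at least 5 CPM, together with Irf7, Irf9, Ifnar1, Ifnar2 and Ly6a. One further pathway gene of that rule is not reported here. Ifi208, Rnf213 and Ly6g of the lists were not matched by symbol in the table. Promoter windows came from RefSeq (GRCm38.p6), and shared stretches of 50 bases were counted over GENCODE M21 transcripts.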

Additional observations from a re-analysis of the deposited data

How the results depend on the processing

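None of the 35 genes passed the threshold under any alternative run, and the lowest adjusted p was 0.629 with a library left out and 0.791 otherwise. Over all genes, DESeq2 called 6 genes (3 higher and 3 lower in p53R248W/+), none of them among the 35, and leaving out single libraries gave 0 to 1 genes (1 without p53R248W/+ replicate 2). The median of the 35 log2 fold changes, 0.02, was -0.11 to 0.24 with single libraries left out, lowest without p53R248W/+ replicate 2 and highest without WT replicate 2, and 0.02 to 0.06 otherwise. Of 140 values with a library left out 106 kept their sign and 34, over 22 genes, turned. The ranges were -0.58 to 0.16 for Stat2, -0.31 to 0.061 for Ddx58, -0.088 to 0.53 for Ifih1, -3.08 to 1.34 for Ifit3, -0.68 to 0.42 for Oas2, -1.92 to 1.62 for Oasl1, -0.11 to 0.26 for Oasl2, -1.94 to 0.46 for Mx1, -0.16 to 0.72 for Rsad2, -0.13 to 1.14 for Cmpk2 and -0.11 to 0.17 for Trim30a. They were -0.71 to 1.03 for Usp18, -0.12 to 0.41 for Gbp2, -0.45 to 0.42 for Gbp3, -0.10 to 0.16 for Gbp7, -0.66 to 0.16 for Igtp, -0.57 to 0.58 for Ifi47, -0.018 to 0.066 for Ifi35, -0.15 to 0.47 for Rtp4, -0.25 to 0.19 for Xaf1, -0.24 to 0.42 for Parp14 and -0.66 to 0.91 for Cxcl10. Among the other pathway genes they were -0.10 to 0.59 for Ifnar2 and -0.12 to 0.93 for Ly6a. Of 276 values under the other alternatives 275 kept their sign, the exception being Usp18 with limma-voom (0.12). The cause was not tested. The labels give replicate numbers only and state no pairing. Replicate differences of the genotypes correlated at 0.0049 across genes. A pairing without a large shared effect can also give such a value, so whether the libraries were paired is not known. With the replicate number as a block 0 genes passed, 758 had an unadjusted p under 0.05 against 780 without it and the median of the 35 was 0.03. Oasl1, Mx1, Isg15 and Ifi27l2a were not tested under the stricter filter. At this depth and with 2 libraries per genotype, the median SE of 0.57 (log2) for the genes under 50 CPM limits what differences could be detected.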
